A study of Mus musculus with 40 samples.

Results

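Complement genes were followed in the mammary gland of ovariectomised mice given estrogen or dietary conjugated linoleic acid (CLA, a group of isomers of linoleic acid). They were taken by symbol, 8 of the 47729 genes in the deposited tables: C1qa, C1qb and C1qc, C3, C4b and Cfb, and C3ar1 and C5ar1. All mice were Balb/cJ, lost their ovaries at 21 days of age, recovered for 7 days and were on a diet based on AIN 93G. Estrogen mice received 200 nM estrogen in their drinking water and were killed after 60 h or 84 h of treatment, each time beside mice on the control diet alone. CLA mice ate the control diet holding CLA as 2.7% fat and were killed after 108 h or 132 h, again beside time-matched controls. Each of the 8 groups held 5 mice, and each library came from 1 number 4 inguinal gland whose lymph node had been cut out. Titles give each animal its own number, and the errors given thus rest on separate mice. An SD is the spread from mouse to mouse, and an SE is the uncertainty of a log2 fold change. No control library served in more than 1 of the 4 treatment comparisons.

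Complement is a cascade of plasma and tissue proteins that tags particles and dying cells for removal. C1q, built of the A, B and C chains, starts the classical pathway, C4 and C3 are cleaved in turn, and factor B joins C3b in the alternative pathway. The small fragments C3a and C5a act on myeloid cells through the receptors encoded by C3ar1 and C5ar1. In many tissues C1q and both receptors come largely from macrophages, whereas C3, C4b and Cfb are also made by fibroblasts, adipocytes and epithelium.

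Promoter sequence is shown for the 5 of 8 members that had an entry in the RefSeq table, all of them members whose levels moved. Each is read 5′ to 3′ on the minus strand of GRCm38.p6, begins at most 250 bases upstream of the RefSeq start and stops before the outermost gene start in RefSeq or GENCODE. Capitals mark GAGGAA, the core bound by PU.1, a transcription factor of the myeloid lineage, or its reverse complement TTCCTC. C1qb covers chr4:136886201-136886450, C1qc chr4:136893066-136893164, C3 chr17:57228137-57228386, C3ar1 chr6:122856162-122856407 and C5ar1 chr7:16259541-16259588.
C1qb: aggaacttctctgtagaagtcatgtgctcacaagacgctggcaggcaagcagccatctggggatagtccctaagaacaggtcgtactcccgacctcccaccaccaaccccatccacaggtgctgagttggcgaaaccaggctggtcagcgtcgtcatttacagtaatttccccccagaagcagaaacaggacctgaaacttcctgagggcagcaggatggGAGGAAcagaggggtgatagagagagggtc
C1qc: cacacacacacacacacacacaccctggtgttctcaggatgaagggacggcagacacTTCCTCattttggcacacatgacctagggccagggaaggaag
C3: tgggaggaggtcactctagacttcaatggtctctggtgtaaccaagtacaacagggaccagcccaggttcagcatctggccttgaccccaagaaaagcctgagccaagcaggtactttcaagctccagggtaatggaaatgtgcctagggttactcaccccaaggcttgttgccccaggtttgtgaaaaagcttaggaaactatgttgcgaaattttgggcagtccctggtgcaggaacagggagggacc
C3ar1: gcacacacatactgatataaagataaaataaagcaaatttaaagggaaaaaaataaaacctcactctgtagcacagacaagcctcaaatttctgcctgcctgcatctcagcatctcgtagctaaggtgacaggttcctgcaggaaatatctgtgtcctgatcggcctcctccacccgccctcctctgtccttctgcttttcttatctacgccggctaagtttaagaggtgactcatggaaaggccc
C5ar1: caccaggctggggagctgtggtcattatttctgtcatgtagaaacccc
GAGGAA stood at positions -30 to -25 of C1qb and, on the other strand, at -193 to -188 of C1qc, both counted from the RefSeq start. It was in neither the C3 nor the C3ar1 stretch, and 23.25% of 32851 windows of 250 bases held it on either strand. C3 had TTGCNNAA, a C/EBP motif present in 9.56% of windows, at -45 to -38. C3ar1 had TGANTCA, an AP-1 motif present in 6.75% of windows, at -22 to -16. An NF-kappaB motif (GGG, any 5 bases, CC) was found in the windows of C1qb, C1qc, C3 and C3ar1, and in 45.8% of all windows. The matches in C1qc, within -41 to -31, lie inside the GENCODE gene and outside the stretch shown. TGCTGAC (a MAF site, 3.81% of windows) and the core of the interferon response element (GAAA, any 2 bases, GAAA; 2.98%) were found in none of the 5 members, and the window of 250 bases of C5ar1 had none of the 6 motifs. Of the C5ar1 window only the 48 bases shown lie upstream of the GENCODE gene. A match is only a match of letters.

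The 3 C1q genes sit side by side on the minus strand of chromosome 4, within 136880129 to 136898803 (C1qb, then C1qc, then C1qa). C3 (17:57203970-57228136), C4b (17:34728380-34743882) and Cfb (17:34856374-34862518) are on chromosome 17, C3ar1 is at 6:122847138-122856161 and C5ar1 at 7:16246743-16259540. All 8 are annotated as protein coding in GENCODE M21 on GRCm38.

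Total counts per library, in units of 1e6, ran from 18.2 to 40.0 (mean 29.3, SD 4.68). A skin and hair signal marked 11 libraries: there the mean log2 CPM of the list was 1.61 to 6.88, against -2.47 to 0.71 elsewhere (29 libraries). The 11 were 4 estrogen libraries (1 at 60 h and 3 at 84 h) and 7 controls (1 at 84 h, 3 at 108 h and 3 at 132 h), and none came from a CLA mouse. Genes typical of hepatocytes were high in 2 libraries: control replicate 1 at 132 h (list mean 7.70 log2 CPM) and estrogen replicate 5 at 60 h (4.20), against -3.36 to -0.88 in the other 38. All 10 estrogen mice fell in a single run of animal numbers without controls, and estrogen and that run cannot be told apart. CLA mice and controls shared other runs.

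Per unit of gene length, C3 was the most abundant member in the control glands. At 132 h it averaged 232 ± 10.5 RPKM (reads per kilobase of gene per 1e6 reads, SD, n = 5), followed by C1qa at 77.7 ± 12.4, C4b at 68.8 ± 7.62, C1qb at 43.3 ± 7.13, Cfb at 35.9 ± 7.66 and C1qc at 32.5 ± 5.27. The receptors were far lower, C5ar1 at 2.72 ± 0.615 and C3ar1 at 2.06 ± 0.786. In that order C1qa and C4b, then C1qb, Cfb and C1qc, and then both receptors were neighbours within their spread. The place of Cfb is uncertain, since its counts were only 0.0393 of what RPKM and length would give. In counts Cfb averaged 5.13 CPM in these controls, below C5ar1 at 9.77 and C3ar1 at 11.8 CPM. CPM is not scaled to length, and Cfb has 2825 exonic bases, C5ar1 2570 and C3ar1 4305. In the CLA glands at 132 h, C1qa (170 ± 9.15 RPKM) and C3 (161 ± 30.5) were level within their spread, and C1qb (122 ± 18.9) and C1qc (80.3 ± 7.58) stood above C4b (68.9 ± 5.46) in the means. C3ar1 then averaged 27.1 ± 9.29 RPKM and C5ar1 13.7 ± 3.68.

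**Figure D1:**
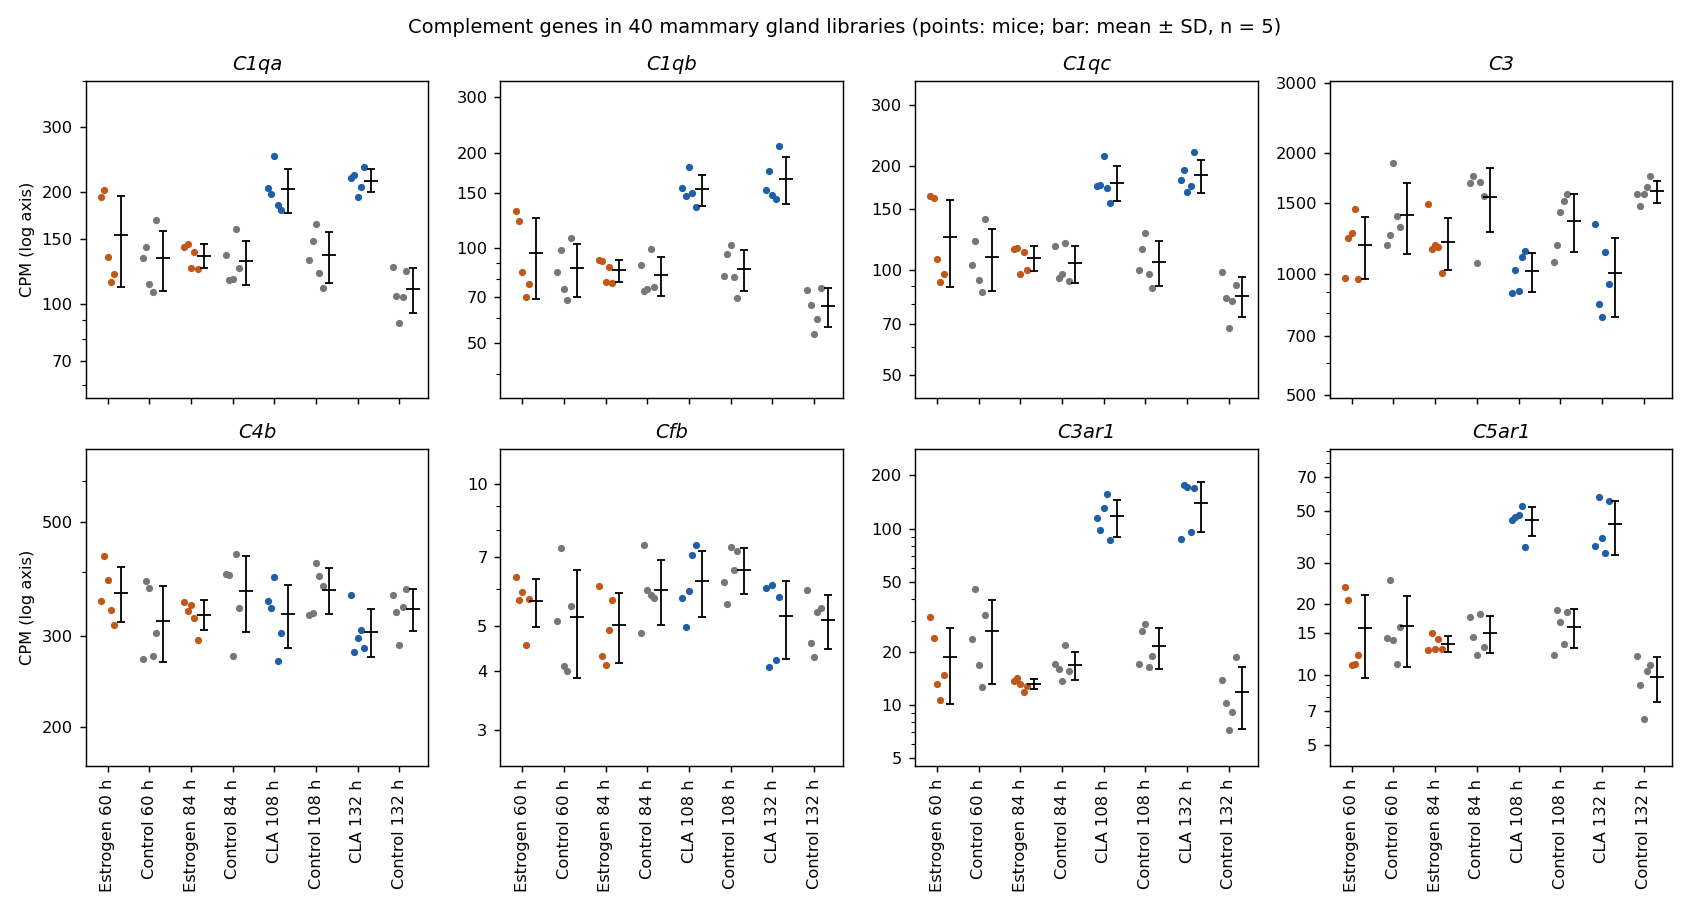
CPM (TMM-scaled counts per 1e6) of the 8 members in all 40 libraries, 1 point per mouse, with mean ± SD of the 5 mice of a group beside the points; the vertical axes are logarithmic. The C1q chains and both receptors are higher in all CLA libraries than in the controls of the same time. C3 is lower with CLA at 132 h, and estrogen groups overlap their controls. At 84 h all 5 estrogen points of C3, C4b, C3ar1 and C5ar1 lie below the control mean. For Cfb 4 of 5 do, and for each C1q chain 2 of 5.

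CLA moved 6 of the 8 members, in both directions and the same way at both times: all 3 C1q chains and both anaphylatoxin receptors rose and C3 fell, while C4b and Cfb did not pass the test. The test was edgeR's quasi-likelihood test on counts, with Benjamini-Hochberg adjustment over all tested genes and a threshold of 0.05. It called 47.9% of 17248 tested genes at 108 h (24.9% higher, 23% lower) and 56% of 17180 at 132 h (27% higher, 29% lower). Calls were thus common among all genes. In CPM, 32.2% of genes had groups that did not overlap at 108 h and 36.9% at 132 h, against 5 and 6 of the 8 members. The median log2 fold change over all tested genes was -0.01 at 108 h and -0.03 at 132 h. In whole tissue, a change in the number of cells of a type and a change of RNA per cell cannot be told apart.

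The C1q chains rose together. C1qb, the B chain, had 155, 146, 181, 150 and 135 CPM in CLA glands at 108 h, against 81.8, 95.7, 102, 81.0 and 69.8 CPM in controls. At 132 h it had 153, 176, 148, 143 and 211 CPM with CLA, against 74.1, 65.9, 53.6, 59.9 and 74.9 CPM in controls. Every CLA library stood above every control of its time. The rise was 0.83 ± 0.17 log2 (SE; 1.78-fold) at 108 h and 1.33 ± 0.12 (2.51-fold) at 132 h, with adjusted p = 0.000451 and 1.84e-08 by edgeR. C1qc, the C chain, had 175, 177, 213, 173 and 157 CPM with CLA at 108 h, against 100, 115, 128, 97.4 and 88.7 CPM in controls. At 132 h C1qc had 182, 195, 168, 175 and 220 CPM with CLA, against 98.9, 83.3, 68.3, 81.5 and 90.5 CPM in controls. Those groups were likewise apart at both times, by 0.76 ± 0.17 log2 (edgeR, adjusted p = 0.00107) and 1.14 ± 0.10 (edgeR, adjusted p = 1.64e-08).

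C1qa, the A chain, had the smallest rise of the 3. At 108 h it had 206, 197, 250, 185 and 180 CPM with CLA, against 132, 148, 164, 121 and 110 CPM in controls. Later, at 132 h, C1qa had 219, 223, 194, 207 and 234 CPM with CLA, against 126, 105, 88.5, 104 and 123 CPM in controls. The groups were apart at both times, with log2 fold changes of 0.59 ± 0.17 (edgeR, adjusted p = 0.00664) and 0.97 ± 0.10 (edgeR, adjusted p = 8.67e-08). Without the 11 libraries high in skin genes, which leaves 2 controls at each time, the 108 h value was 0.51 with adjusted p = 0.0971 by edgeR, past the threshold no longer. In the same fit C1qb (0.74, adjusted p = 0.0213) and C1qc (0.66, adjusted p = 0.0384) remained called.

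The balance of the chains differed with CLA. The ratio of C1qa to C1qb in RPKM averaged 1.42 in CLA glands and 1.69 in controls at 108 h, and 1.41 with CLA against 1.80 in controls at 132 h, with no overlap of the groups. The ratio of C1qa to C1qc was 2.10 with CLA and 2.35 in controls at 108 h, and 2.13 against 2.39 at 132 h, again without overlap. Each of these 4 differences had a two-sided exact permutation p of 0.00794, the smallest that 252 splits of 5 against 5 allow, and 0.0238 after adjustment over 12 such tests, which were added after the first fits. The ratio of C1qb to C1qc was 1.48 with CLA against 1.39 in controls at 108 h and 1.52 against 1.33 at 132 h; the groups overlapped (exact permutation, adjusted p = 0.0317 at both times). With estrogen none of the 6 ratios passed (exact permutation, adjusted p = 0.245 to 0.921).

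**Figure D2:**
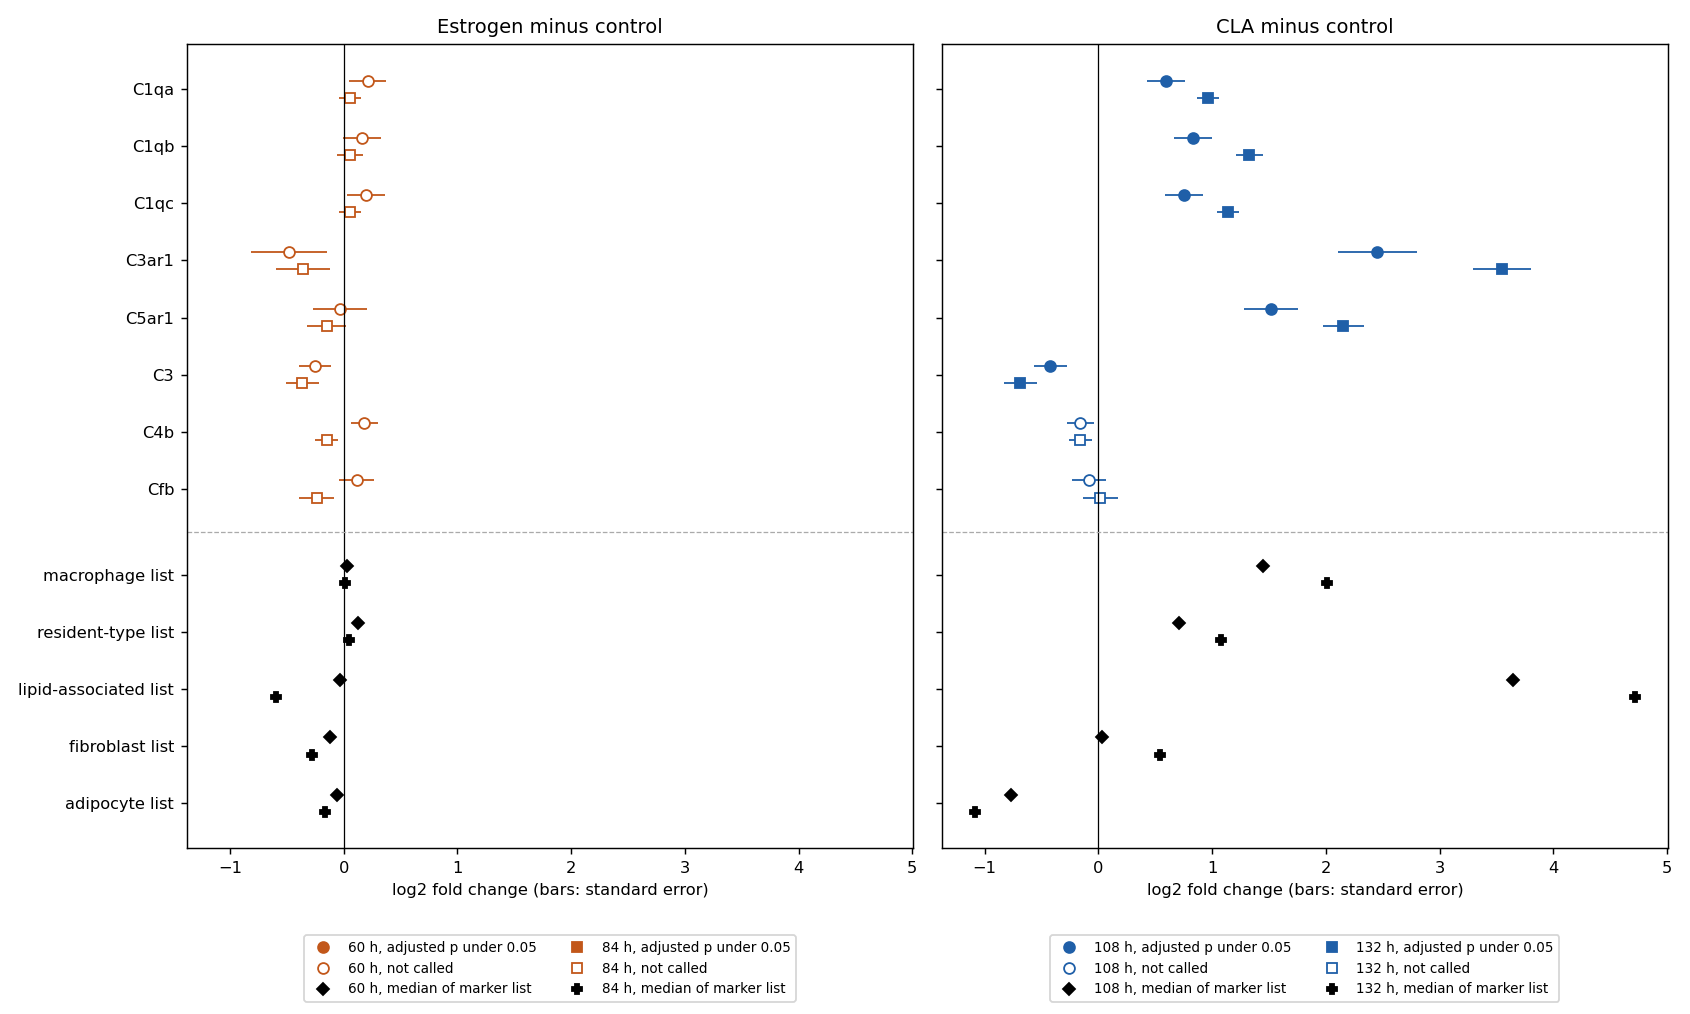
log2 fold change of each member, estrogen (left) and CLA (right) over time-matched control, with its standard error as a bar (n = 5 mice per group); filled symbols passed the edgeR test, and the black symbols below the line are medians of marker lists. The receptors and C1q chains lie right of 0 with CLA, C3 lies left of it, and no estrogen value passed.

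The receptors rose most. C3ar1, the receptor of C3a, had 115, 98.5, 132, 158 and 86.7 CPM with CLA at 108 h, against 17.1, 26.2, 28.9, 16.5 and 19.1 CPM in controls. At 132 h it had 87.0, 177, 172, 95.1 and 169 CPM with CLA, against 13.9, 10.2, 7.18, 9.18 and 18.7 CPM in controls. The lowest CLA library was far above the highest control at both times. C3ar1 rose by 2.45 ± 0.34 log2 (5.48-fold; edgeR, adjusted p = 1.47e-05) at 108 h and by 3.55 ± 0.25 (11.7-fold; edgeR, adjusted p = 2.44e-09) at 132 h.

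C5ar1, the main signalling receptor of C5a, had 45.9, 46.9, 48.1, 52.4 and 34.9 CPM with CLA at 108 h, against 12.1, 18.8, 16.8, 13.5 and 18.6 CPM in controls. C5ar1 at 132 h had 35.5, 57.4, 38.2, 33.0 and 55.1 CPM with CLA, against 12.0, 9.03, 6.49, 10.4 and 11.0 CPM in controls. Its groups were apart as well, with rises of 1.52 ± 0.24 log2 (2.86-fold; edgeR, adjusted p = 4.29e-05) and 2.15 ± 0.18 (4.45-fold; edgeR, adjusted p = 7.45e-09).

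Differences between the times were not resolved: 0 of 8 members were called by edgeR or DESeq2, and 3 (C3ar1, C5ar1 and C1qb) had an unadjusted p under 0.05. The CLA effect at 132 h minus that at 108 h was 1.11 ± 0.42 log2 for C3ar1 (unadjusted p = 0.0116, edgeR adjusted p = 0.259), 0.65 for C5ar1 (edgeR, adjusted p = 0.361) and 0.50 for C1qb (edgeR, adjusted p = 0.31). That contrast called 0% of all genes by edgeR, with 2216 at an unadjusted p under 0.05 and 130 called by DESeq2. The controls themselves were not flat: over the 4 times, which called 13.4% of genes, C3ar1 changed (range of 1.15 log2 between times; edgeR, adjusted p = 0.0401) and C5ar1 fell short (0.73; edgeR, adjusted p = 0.0508). The call for C3ar1 was lost (adjusted p of 0.0505 to 0.102 by edgeR) without control replicate 2 or 5 at 60 h, 1 or 2 at 84 h, 2 at 108 h, or 1, 2, 3 or 4 at 132 h, and C5ar1 passed without control replicate 4 at 60 h, 3 at 84 h or 1 at 108 h (adjusted p of 0.0397 to 0.0466). C3ar1 averaged 4.47 ± 2.30 RPKM in controls at 60 h, 2.82 ± 0.599 at 84 h, 3.89 ± 1.05 at 108 h and 2.06 ± 0.786 at 132 h.

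C3, the central protein of the cascade, fell with CLA. At 108 h it had 897, 1022, 909, 1103 and 1141 CPM with CLA, against 1072, 1178, 1431, 1523 and 1587 CPM in controls, and the groups overlapped. At 132 h it had 1331, 841, 782, 1136 and 941 CPM with CLA, against 1578, 1473, 1579, 1648 and 1752 CPM in controls, all above the CLA libraries. The log2 fold change was -0.42 ± 0.14 (edgeR, adjusted p = 0.0186) at 108 h and -0.69 ± 0.15 (edgeR, adjusted p = 0.000573) at 132 h. The 108 h call was lost without CLA replicate 1 (-0.38) or control replicate 5 (-0.37), each with adjusted p = 0.0507 by edgeR.

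C4b, which encodes the C4 protein that C1s cleaves, had 268 to 392 CPM with CLA at 108 h, against 330 to 417 CPM in controls. At the later time C4b had 280 to 360 CPM with CLA, against 289 to 370 CPM in controls. The groups overlapped and the values, -0.16 ± 0.12 (edgeR, adjusted p = 0.273) and -0.16 ± 0.10 (edgeR, adjusted p = 0.195), did not pass. C4b and its neighbour C4a are 96.0% identical over 5378 aligned bases, so reads may be split between them, and the C4b counts were 0.634 of what its RPKM values and annotated length would give.

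Cfb, which encodes factor B, did not pass either, at -0.08 ± 0.15 (edgeR, adjusted p = 0.688) and 0.02 ± 0.15 (edgeR, adjusted p = 0.937). It averaged 40.7 ± 3.87 RPKM with CLA and 42.6 ± 5.78 in controls at 108 h, and 37.1 ± 4.06 with CLA against 35.9 ± 7.66 at 132 h. Its counts and its RPKM disagreed, and which lies nearer the true level was not tested. The counts were only 0.0393 of what RPKM and length would give, which 0.17% of 9442 genes undercut. Of its exonic bases 79.5% are shared, on the same strand, with Gm20547, a gene model that runs from C2 into Cfb.

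Estrogen gave 0 calls among the 8 members by edgeR and by DESeq2, with 6.49% of genes called at 60 h (4.07% higher, 2.42% lower) and 5.42% at 84 h (3.45% higher, 1.97% lower). At an unadjusted p under 0.05 there were 0 members at 60 h and 1 at 84 h, C3. All 8 overlapped their controls at both times, where 6.33% and 8.04% of genes did not. Between the estrogen effects at 84 h and 60 h edgeR and DESeq2 called 0 members (1, C4b, at an unadjusted p under 0.05), and edgeR called 0.0056% of genes. C3ar1 had 31.5, 24.0, 13.1, 10.7 and 14.8 CPM with estrogen at 60 h, against 23.7, 45.5, 16.8, 12.7 and 32.3 CPM in controls. The log2 fold changes of C3ar1 were -0.48 ± 0.33 at 60 h and -0.35 ± 0.24 at 84 h (edgeR, adjusted p = 0.425 at both). The C1q chains lay between 0.16 and 0.21 at 60 h and at 0.06 each at 84 h. C3 averaged 169 ± 24.3 RPKM with estrogen and 200 ± 37.3 in controls at 60 h, and 175 ± 28.7 with estrogen against 218 ± 43.5 at 84 h. Its log2 fold changes were -0.25 ± 0.14 (edgeR, adjusted p = 0.298) and -0.36 ± 0.15 (edgeR, adjusted p = 0.155); without control replicate 3 at 84 h the value was -0.46 and passed (edgeR, adjusted p = 0.0419).

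The difference between the agents was tested directly, though times differ as well. The CLA effect at 108 h exceeded the estrogen effect at 60 h for 4 of 8 members, where 32.4% of all genes differed (17.5% higher, 14.9% lower): by 0.68 log2 for C1qb (edgeR, adjusted p = 0.0123), 0.57 for C1qc (0.0273), 2.93 for C3ar1 (2.48e-06) and 1.55 for C5ar1 (0.000158). C1qa did not pass there (0.39; edgeR, adjusted p = 0.132), but passed without estrogen replicate 2 at 60 h (0.50; adjusted p = 0.0407). C1qc was close to the threshold: it fell short without estrogen replicate 3, 4 or 5 or control replicate 2 or 5 at 60 h, CLA replicate 3 or control replicate 5 at 108 h, with values of 0.45 to 0.52 (edgeR, adjusted p of 0.0536 to 0.0765). C1qc also fell short with no filter on low counts (0.55, edgeR, adjusted p = 0.0526) and with upper-quartile scaling (0.48, edgeR, adjusted p = 0.0567). Without the libraries high in hepatocyte genes C1qc was at 0.49 (edgeR, adjusted p = 0.0603). C4b passed without control replicate 2 at 60 h (-0.42, edgeR, adjusted p = 0.0448) and with upper-quartile scaling (-0.43, edgeR, adjusted p = 0.0373). Without the libraries high in skin genes 2 members passed, C3ar1 and C5ar1. The CLA effect at 132 h exceeded the estrogen effect at 84 h for all 5 members that rose (40.4% of genes differed, 20.8% higher and 19.6% lower), from 0.93 log2 for C1qa (edgeR, adjusted p = 0.000304) to 3.92 for C3ar1 (edgeR, adjusted p = 1.27e-08). C3 did not pass in either contrast, at -0.31 in the later one (edgeR, adjusted p = 0.253).

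Markers of macrophages moved with the members that rose. Of 15 tested genes of a macrophage list, 12 rose at 108 h and 13 at 132 h, with medians of 1.45 and 2.01 log2. Their summed level was 2734 to 4159 CPM with CLA against 910 to 1641 CPM in controls at 108 h, and 2860 to 5407 CPM with CLA against 596 to 1078 CPM at 132 h. Adgre1, which encodes F4/80, averaged 208 CPM with CLA and 48.0 CPM in controls at 108 h, and 235 against 26.9 CPM at 132 h. A list of tissue-resident macrophage genes, which shares 3 genes with the first, had medians of 0.71 (5 of 7 higher) and 1.08 (7 of 7 higher). A list of lipid-associated macrophage genes, such as Trem2 and Gpnmb, had medians of 3.65 and 4.72, with 7 of 7 higher at both times. With estrogen 0 of 15 macrophage genes were called by edgeR at either time (medians 0.02 and 0.01; 2 and 0 at an unadjusted p under 0.05). What part these cells have in the members' changes was not tested.

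Stromal markers did not all move one way. The 12 fibroblast genes counted 2 higher and 2 lower at 108 h (median 0.03), then 8 higher and 1 lower at 132 h (median 0.54). All 8 adipocyte genes fell at both times, with medians of -0.77 and -1.09. Adipoq, which encodes adiponectin, averaged 630 CPM with CLA and 1363 CPM in controls at 108 h, and 547 against 1466 CPM at 132 h. Of 8 endothelial genes 7 fell at each time, with medians of -0.66 and -0.85. Their mean log2 CPM was 6.47 with CLA against 7.14 in controls at 108 h, and 6.29 against 7.07 at 132 h. What part these cells have in the members' changes was not tested either. Neutrophils also carry C5ar1, and 0 of 5 tested genes of their list were called by edgeR at either time (medians 0.34 and 0.52; 0 and 1 at an unadjusted p under 0.05).

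Set against the mean log2 CPM of the macrophage list in the same library, the members separated. C3ar1 was still higher with CLA, by 0.99 log2 at 108 h (limma, adjusted p = 4.54e-05) and 1.53 at 132 h (limma, adjusted p = 2.24e-11). C5ar1 stayed near the list, at 0.05 (limma, adjusted p = 0.825) and 0.11 (limma, adjusted p = 0.491). The C1q chains rose less than the list, with C1qa at -0.87 and -1.05, C1qc at -0.71 and -0.89, and C1qb at -0.63 and -0.71 (limma, adjusted p at 108 h of 0.000288, 0.00292 and 0.00778). Without the libraries high in skin genes the 108 h call of C1qb was lost (-0.63; limma, adjusted p = 0.075). C3, C4b and Cfb lay at -1.88, -1.63 and -1.56 at 108 h and at -2.74, -2.19 and -2.02 at 132 h. Because the list itself rose, 92.8% of genes were called on this scale at 108 h (1.25% higher, 91.5% lower; median -1.48) and 96.4% at 132 h (1.2% higher, 95.2% lower; median -2.05), so a fall on this scale is the usual case. The choice of list mattered. Relative to the resident-type list C5ar1 was higher, at 0.70 (limma, adjusted p = 0.000725) and 0.91 (limma, adjusted p = 1.28e-05). On that scale C1qb (0.02 and 0.10), C1qc (-0.06 and -0.08) and, at 108 h, C1qa (-0.22) did not pass (limma, adjusted p of 0.129 to 0.891). Relative to the lipid-associated list C3ar1 was at -1.42 and -1.08 and C5ar1 at -2.36 and -2.50.

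**Figure D3:**
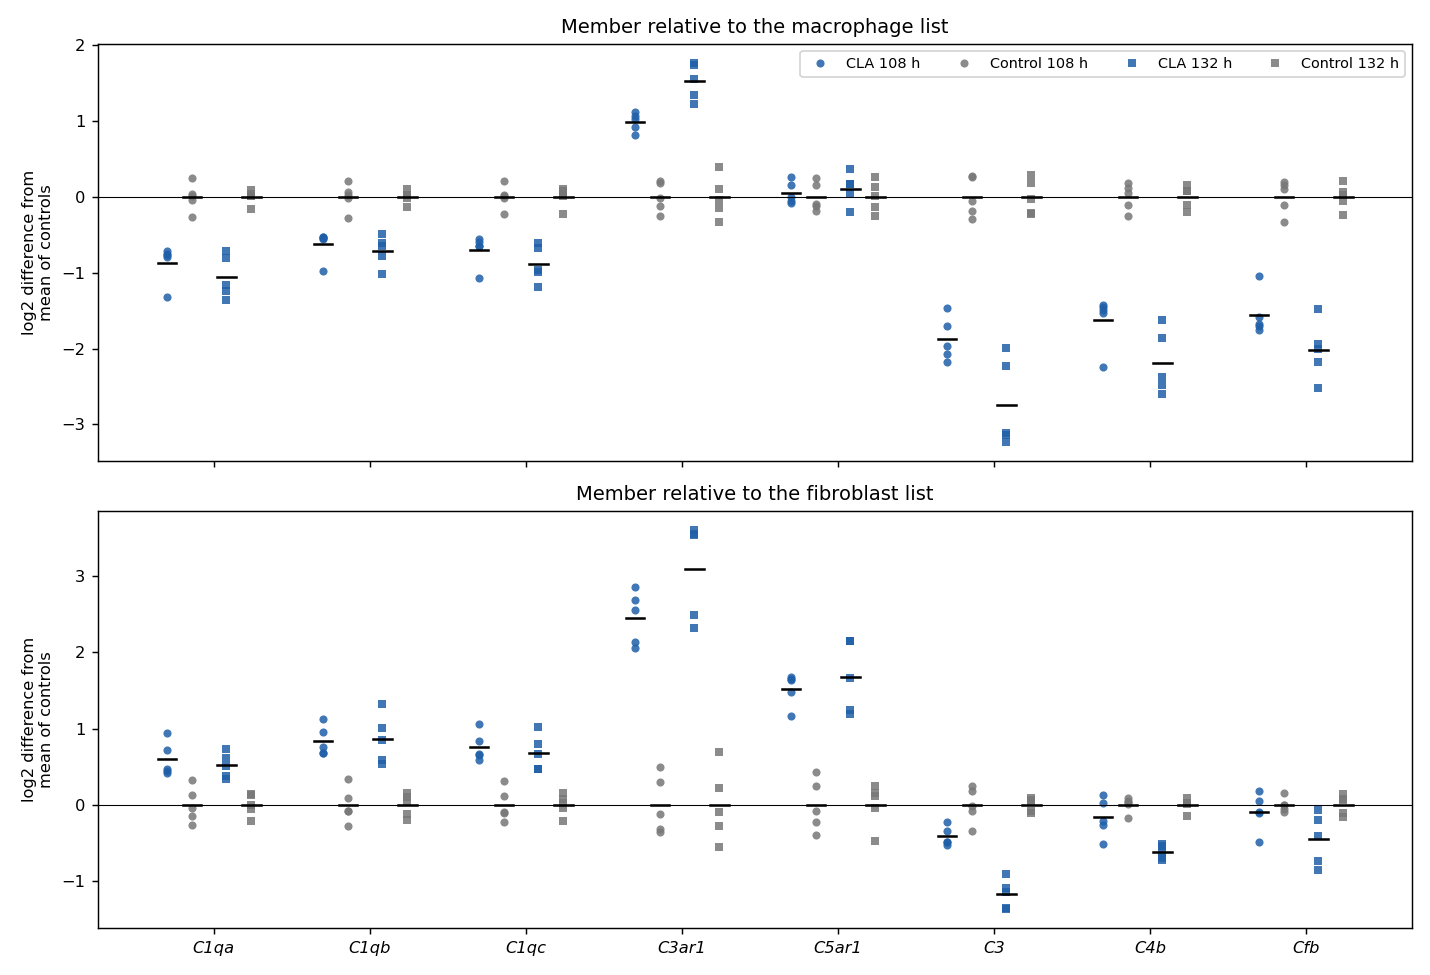
log2 CPM of each member minus the mean log2 CPM of the macrophage list (top) or fibroblast list (bottom) in the same library, as a difference from the mean of the time-matched controls; 1 point per mouse, black lines for group means (n = 5 each). Relative to macrophage markers C3ar1 lies above 0, C5ar1 near 0 and the C1q chains below it; relative to fibroblast markers C3 is below 0.

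Relative to the mean of the fibroblast list, the 5 members that rose still did so, by 0.60 log2 for C1qa to 2.46 for C3ar1 at 108 h and by 0.52 to 3.10 at 132 h. On that scale 35.6% of genes were called at 108 h (19.2% higher, 16.4% lower) and 63.8% at 132 h (8.57% higher, 55.2% lower). C3 was at -0.41 (limma, adjusted p = 0.0246) and -1.17 (limma, adjusted p = 1.7e-08). C4b was at -0.16 and -0.62 (limma, adjusted p at 132 h = 4.64e-05) and Cfb at -0.09 and -0.45 (limma, adjusted p at 132 h = 0.0316), where the median of all genes was -0.48. The 108 h call of C3 was lost without CLA replicate 1, 2 or 3 or control replicate 4 or 5 (limma, adjusted p of 0.0531 to 0.0759), and without the libraries high in skin genes (-0.46; limma, adjusted p = 0.0735). The 132 h call of Cfb was lost without CLA replicate 2 or 4 or control replicate 1, 4 or 5 (limma, adjusted p of 0.055 to 0.107), and without the libraries high in skin genes (-0.52; limma, adjusted p = 0.0596). Against the adipocyte list, an alternative added after seeing the data, these 3 turned positive: C3 at 0.46 and 0.37, C4b at 0.71 and 0.92 and Cfb at 0.79 and 1.09. All genes shift alike when the list is changed, and the adipocyte genes themselves fell. C3 and C4b lay below the median of all genes at both times, a median of -0.01 and -0.48 relative to the fibroblast list. C3 lay between these lists, above adipocyte markers and below fibroblast markers.

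The relation to macrophage markers was also examined among the 20 control mice. Values were taken as deviations from the mean of their time group. The log2 CPM of C3ar1 followed the macrophage list mean with Pearson r = 0.97 (Spearman rho = 0.95), C5ar1 with 0.87 (0.86), C1qb with 0.85 (0.83), C1qc with 0.81 (0.79) and C1qa with 0.80 (0.80). Permutation p-values adjusted over 16 relations were 0.00016 for both receptors, 0.000267 for C1qb and 0.0008 for C1qc and C1qa. Without the 2 mice farthest from the median of the list, r was 0.78 for C5ar1 and at least 0.81 for the other 4. Within the 2 runs of animal numbers that held at least 6 controls, r was 0.96 and 0.99 for C3ar1, 0.96 and 0.91 for C5ar1, 0.77 and 0.92 for C1qb, 0.80 and 0.87 for C1qc and 0.75 and 0.85 for C1qa.

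C4b, Cfb and C3 gave lower values of r, though the difference between correlations was not tested. C4b had r = 0.64 and rho = 0.65 (permutation, adjusted p = 0.0213) and Cfb 0.66 and 0.61 (permutation, adjusted p = 0.0254). Without the 2 farthest mice r dropped to 0.52 for C4b and 0.42 for Cfb, and in the first run Cfb was at 0.13. For C3 no relation passed (r = 0.08, rho = 0.10, permutation, adjusted p = 0.767; 0.21 without the 2 farthest mice, 0.55 and -0.33 within runs). With the fibroblast list none of the 8 passed, r running from 0.13 to 0.45 (lowest permutation p after adjustment 0.148).

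**Figure D4:**
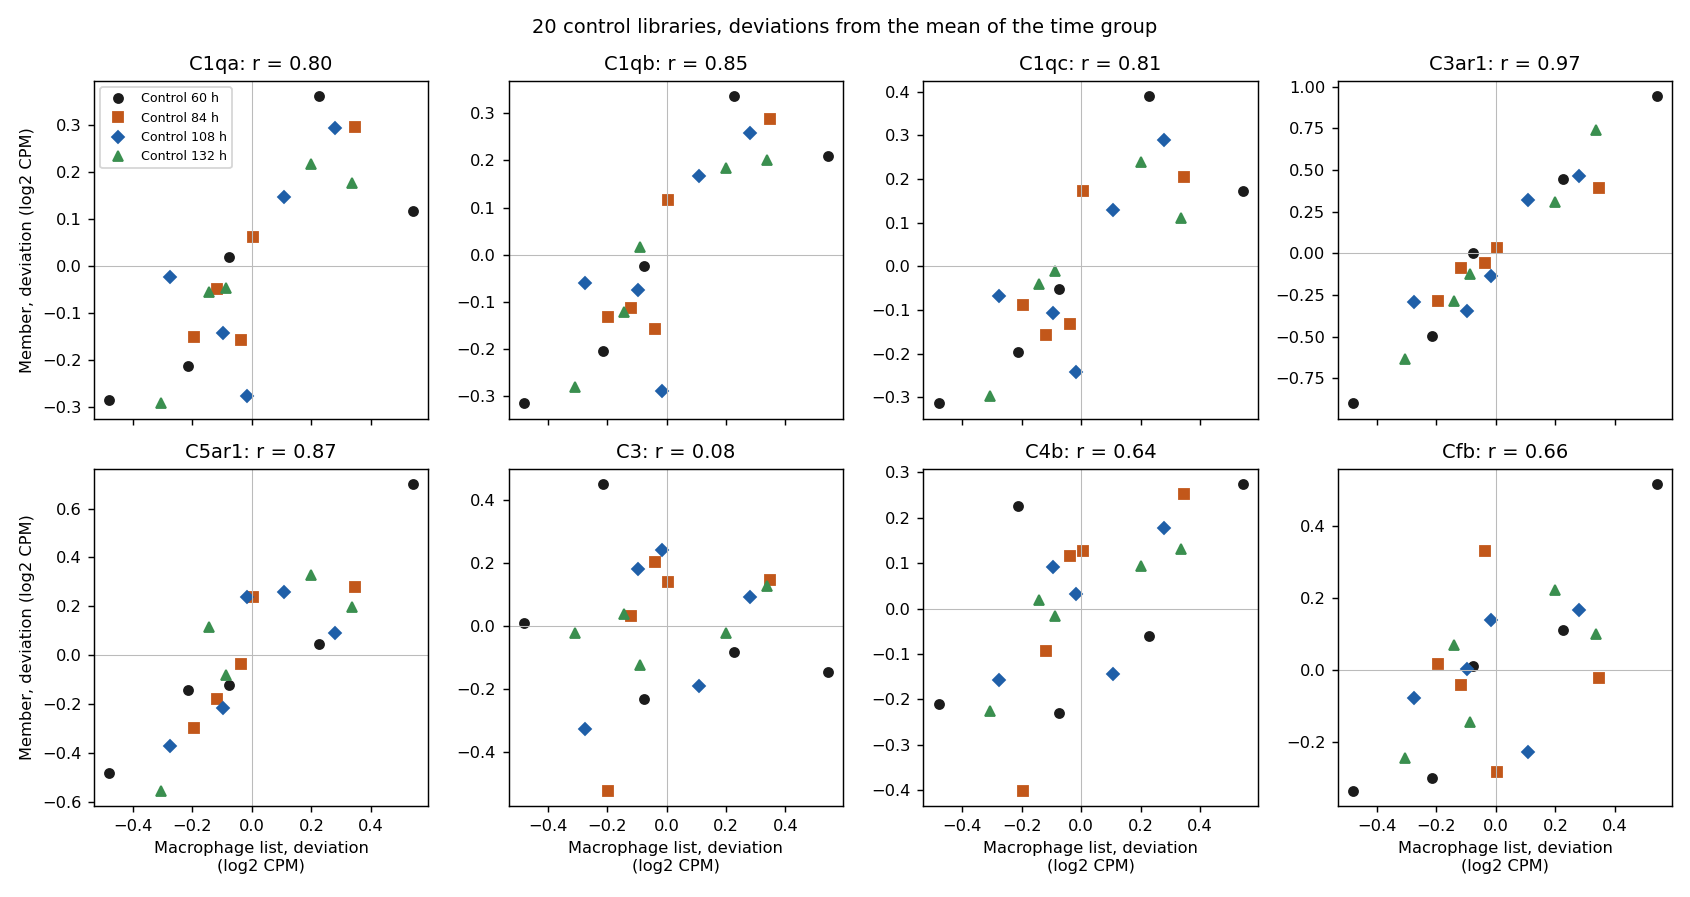
log2 CPM of each member (vertical) against the mean log2 CPM of the macrophage list (horizontal) in the 20 control glands, both as deviations from the mean of their time group; 1 point per mouse, marked by time, with Pearson's r above each panel. C3ar1, C5ar1 and the C1q chains rise along the list mean, while C3 scatters without a trend.

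Over all 40 libraries, after each group's mean was taken off, the genes most like each member were named from 12358 genes by Pearson's r, as a description. For the C1q chains these were first each other (r = 0.95 to 0.98), then Fcna, a ficolin, for C1qa (0.91) and Fcgr2b, an inhibitory Fc receptor, for C1qb (0.92) and C1qc (0.89). C3ar1 was most like Cd53, Itgb2 and Ctss (0.94 each), and C5ar1 like C3ar1, Lgmn and Tnfrsf1b (0.85 each). C3 was most like Sik2 (0.80), Insr, the insulin receptor gene (0.75), and Aox1 (0.74). C4b followed C4a (0.92) ahead of Scp2 (0.64) and Slc4a4 (0.62), and Cfb was close to no gene (Slfn1, 0.64; Pyhin1, 0.63; Tmsb4x, 0.62). Libraries shared depth, the skin signal and cell makeup, which such values do not separate.

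Of 49 other complement genes listed, 44 were in the tables and 35 were tested. CLA gave 6 higher and 9 lower at 108 h, and 12 of each at 132 h, and estrogen gave 2 higher and 4 lower at 60 h and 2 lower at 84 h. The CLA calls made up 42.9% of the 35 at 108 h and 68.6% at 132 h, against 47.9% and 56% of all genes, and the estrogen calls 17.1% at 60 h and 5.71% at 84 h, against 6.49% and 5.42%. Their medians were -0.07 and -0.21 with CLA and -0.08 and -0.23 with estrogen. The CLA median at 132 h changed sign with a few libraries: it was 0.09 without the 2 high in hepatocyte genes, of which control replicate 1 is the one at that time, and 0.23 without those high in skin genes. Without the first set the estrogen counts were 0 higher and 1 lower at 60 h, and 1 higher and 2 lower at 84 h. Without the second, which leaves 2 estrogen and 4 control mice at 84 h, they were 1 of each at 60 h and 0 at 84 h. Among the genes listed as receptors of complement, at 108 h 3 of 5 rose and 1 fell, and at 132 h 4 rose. Of these Vsig4, at 0.71 at 132 h (edgeR, adjusted p = 0.0216), lost its call without the libraries high in skin genes. It was then at 0.67 (edgeR, adjusted p = 0.133). Cr2, a complement receptor gene counted below with the regulators, was called lower at 132 h (-0.67, edgeR, adjusted p = 0.0257). Its call was lost without the libraries high in hepatocyte genes, at -0.45 (edgeR, adjusted p = 0.113). It was also lost without those high in skin genes, at -0.37 (edgeR, adjusted p = 0.295). In the classical and lectin group, at 108 h 1 of 11 rose and 2 fell, whereas 5 rose and 4 fell at 132 h. The 2 that fell at 108 h were C2, which encodes the protease that joins cleaved C4, and C4a, and the counts of both are uncertain. C2 counts were 0.145 of what RPKM and length would give, with 42.8% of its exonic bases shared with Gm20547, and C4a is the near copy of C4b. Regulators (13 tested) counted 0 higher and 3 lower at 108 h, then 2 higher and 5 lower at 132 h.

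Among the other complement genes tested, Itgax and Itgb2 had the largest rises at both times. C5ar2 came next, ahead of Colec12 and Cfp, but its average level was too low for the rule by which genes are named here. Itgax, the alpha chain of complement receptor 4 (CD11c), had 58.1, 58.5, 72.8, 83.6 and 53.7 CPM with CLA at 108 h, against 3.90, 4.66, 3.66, 5.43 and 4.11 CPM in controls. It rose by 3.90 log2 there and by 5.06 at 132 h (edgeR, adjusted p = 3.41e-10 and 6.59e-09), with no overlap. Itgb2, the beta chain that Itgax pairs with, rose by 2.24 and 3.42. Colec12, a scavenger receptor with a collectin domain, rose by 1.26 and 1.82, and Cfp, properdin of the alternative pathway, by 1.09 and 1.66. Cfp groups overlapped at 108 h, and without the libraries high in skin genes its value there was 1.21 with adjusted p = 0.0713 by edgeR.

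Cfd, which encodes factor D, the protease that cleaves factor B, and is made chiefly by adipocytes, led the falls among the genes named by rule. It had 1103, 1089, 850, 786 and 1796 CPM with CLA at 108 h, against 3891, 3136, 3340, 4024 and 4474 CPM in controls. Cfd at 132 h had 1113, 345, 611, 1077 and 677 CPM with CLA, against 3080, 3857, 4711, 4960 and 4487 CPM in controls. The groups were far apart, by -1.75 and -2.48 log2 (edgeR, adjusted p = 8.72e-06 and 3.61e-07).

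With estrogen 7 of the 8 other genes named by rule (Itgax, Itgb2, Colec12, Cfp, Cfd, C8g, Vtn and C7) did not pass at either time. Itgax was at -0.83 at 60 h (edgeR, adjusted p = 0.0331) and at -1.25 at 84 h (edgeR, adjusted p = 0.0598). The 60 h call was lost without estrogen replicate 1, 3, 4 or 5 or control replicate 1, 2 or 5 (edgeR, adjusted p of 0.0539 to 0.0831).

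Vtn, vitronectin, and C8g, of the terminal complex, fell by 0.98 and 1.06 log2 at 108 h. At 132 h their values were -2.07 and -1.97, where control replicate 1, the library highest in hepatocyte genes, had 103 CPM of Vtn against 12.7 to 14.9 in the other 4 controls. Without the 2 libraries high in hepatocyte genes the 132 h values were -0.87 for Vtn and -1.12 for C8g, both still called. Cfi, a regulator of low level whose 132 h value was -3.54, was at -0.77 without them. Its call was lost without the libraries high in skin genes (-0.67, edgeR, adjusted p = 0.185). C7, of the terminal complex, was at -0.91 and -1.05. Without the libraries high in hepatocyte genes its 132 h value was -0.78 with adjusted p = 0.107 by edgeR. Without the libraries high in skin genes C7 was at -0.28 at 132 h (edgeR, adjusted p = 0.713). Its calls were also lost without CLA replicate 3 or control replicate 3 at 108 h and without CLA replicate 4 or 5 or control replicate 2 at 132 h (edgeR, adjusted p of 0.0523 to 0.0825). In the 4 treatment comparisons the members' calls did not change without the 2 libraries high in hepatocyte genes: at 132 h C1qa was at 1.02, C1qb at 1.37, C1qc at 1.20, C3 at -0.69, C3ar1 at 3.61 and C5ar1 at 2.24.

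**Figure D5:**
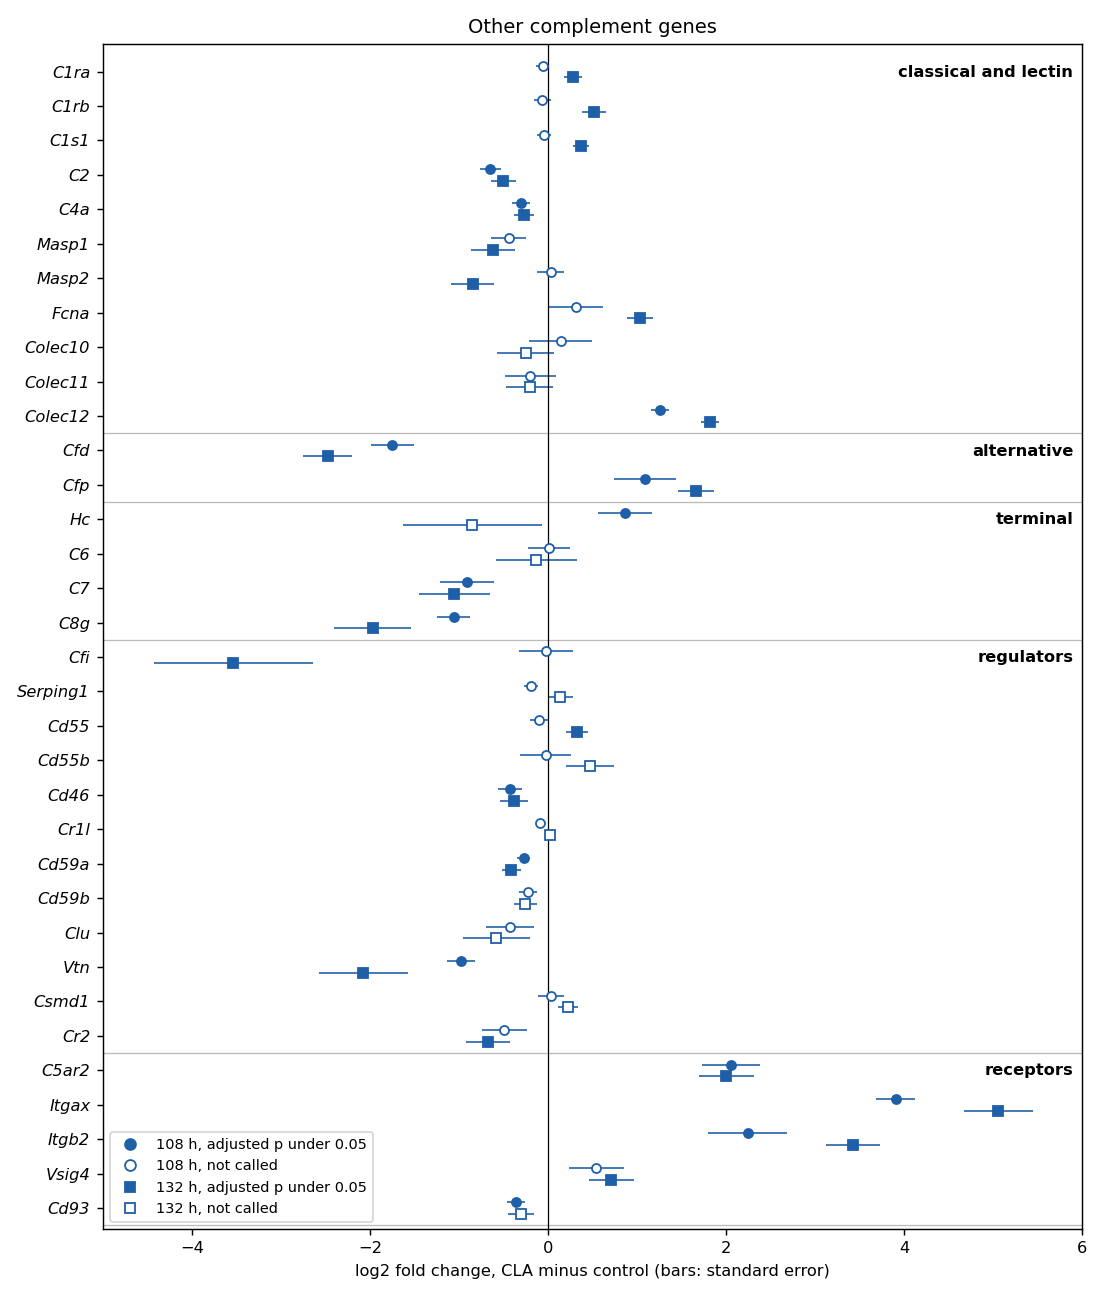
log2 fold change of other complement genes tested, CLA over time-matched control at 108 h (circles) and 132 h (squares), with standard errors as bars (n = 5 mice per group); filled symbols passed the edgeR test. Itgax, Itgb2, C5ar2, Colec12 and Cfp lie farthest right at both times, and Cfd farthest left at 108 h.

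Within runs of animal numbers, which hold 1 to 3 mice of a group, the 5 members that rose with CLA were higher with CLA in every run. The smallest such difference was 0.49 log2, for C1qa at 108 h. C3 was lower with CLA in each, by 0.26 log2 or more. With the run as a term, 5 members were called higher and 1 lower at both times.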

How the data were processed

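Stranded poly(A) RNA-seq libraries of 40 glands were sequenced over 4 lanes, per the labels' protocols. The authors deposited raw gene counts and RPKM values, each in 1 table for 60 h and 108 h and 1 for 84 h and 132 h. The build was GRCm38 per the submitters' processing notes; no source used here names the aligner, the counter or the gene annotation behind the values. Counts and RPKM were made differently, as the ratios given for Cfb and C4b show.

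Counts were tested with edgeR 4.0.16 (R 4.3.3): TMM scaling, filterByExpr (minimum count 10, minimum total 15), robust quasi-likelihood F test, Benjamini-Hochberg threshold 0.05. The 4 groups of a table shared 1 spread; differences between effects and controls over time used all 40 libraries. SE is the absolute log2 fold change over the square root of F. CPM is TMM-scaled over 40 libraries. Values relative to a list are log2 CPM (prior count 2) minus the list mean, tested with limma 3.58.1 (trend, robust). Scripts were tested on simulated counts. Chain ratios and their exact permutation test were run in R. Correlations used numpy 2.4.6, with ranks from scipy 1.17.1, and drew 1e+05 permutations. DESeq2 1.42.0 served as an alternative, beside other scalings, filters, limma on log2(RPKM + 0.1) and log2(RPKM + 1), and leaving out libraries. All sample columns were used.

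The members and gene lists were chosen with earlier results of these data known; the hepatocyte list, the adipocyte list as a base and the chain ratios were chosen after seeing the data. Other complement genes were named by rule: per CLA comparison the 4 largest called rises and falls among genes whose average log2 CPM was 0 or more. Replicates were numbered 1 to 5 in accession order. Itgam was not analysed here. The result of 1 other complement gene is not reported here, though it is in the counts.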

Additional observations from a re-analysis of the deposited data

Results flagged for a closer look

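Within groups of 5 mice, 144 sets of values were examined for a single library far from its group, and 5 were found; chance alone gives about 1 in 20. The measure is the gap to the nearest other library divided by the range, with a critical value of 0.71. Among the members it marked C3 in control replicate 3 at 84 h, at 1063 CPM against 1560 to 1758 CPM in the other 4 controls (0.763). Among other complement genes it marked Colec12 in control replicate 1 at 84 h (96.1 CPM against 82.5 to 85.6; 0.759) and C8g in control replicate 3 at 84 h (2.12 CPM against 3.02 to 3.45; 0.726). It also marked C8g (15.3 CPM against 2.36 to 3.91; 0.731) and Vtn (103 CPM against 12.7 to 14.9; 0.924) in control replicate 1 at 132 h, the library with the highest level of hepatocyte genes.

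The effects of CLA and estrogen differed by a test of the difference itself. Between CLA at 108 h and estrogen at 60 h the log2 difference was 0.676 for C1qb, 0.565 for C1qc, 2.93 for C3ar1 and 1.55 for C5ar1. Between CLA at 132 h and estrogen at 84 h it was 0.929 for C1qa, 1.29 for C1qb, 1.1 for C1qc, 3.92 for C3ar1 and 2.32 for C5ar1. The agents were given for different times, and all estrogen mice came from 1 run of animal numbers, so agent, time and run cannot be told apart here.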

How the results depend on the processing

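Of 2854 repeats of single-gene results under other settings, 2759 kept their call and direction; a value that was not called and changed sign without being called counts as kept. In both CLA comparisons C1qb, C1qc, C3ar1 and C5ar1 kept their calls under every setting tried, and so did C1qa and C3 at 132 h. No paired analysis was possible because the labels give animal numbers only, and replicate numbers follow accession order.

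The count of members called moved by over 1.5 times in 3 comparisons. Between CLA at 108 h and estrogen at 60 h it was 2, in place of 4, without the libraries high in skin genes, and 3 to 5 in 9 other settings that changed it. For controls over time it was 1, but 2 with DESeq2 or a stricter filter, 0 with no filter, 0 without the libraries high in skin genes and 0 without those high in hepatocyte genes, and 0 to 2 when 1 library was left out. For estrogen at 84 h it was 0 to 1 when 1 library was left out. Smaller moves were 5 in place of 6 for CLA at 108 h, 5 to 8 in place of 7 at 108 h and 6 to 8 in place of 7 at 132 h relative to macrophage markers, and 5 to 8 in place of 6 and 6 to 7 in place of 8 relative to fibroblast markers. Direction turned with the marker list set beside a member: against adipocyte markers C3 was at 0.46 and 0.37, C4b at 0.71 and 0.92 and Cfb at 0.79 and 1.09 (108 h and 132 h); against resident-type macrophage markers C1qb was at 0.020 and 0.10; against lipid-associated macrophage markers C3ar1 was at -1.42 and -1.08 and C5ar1 at -2.36 and -2.50. With the median of the fibroblast list in place of its mean, the calls of C1qa at 108 h (0.35) and 132 h (0.05) and of C1qc at 132 h (0.22) were lost. A change of list, or of its mean to its median, shifts all genes alike on that scale. The causes were not tested.

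Counts over all genes moved more than 1.5 times for estrogen at 60 h (1119 genes; 1878 with DESeq2, 742 in a fit of both groups alone, 680 with limma on log2(RPKM + 1), 593 with no filter, 513 without libraries high in skin genes, 448 without those high in hepatocyte genes, down to 316 with 1 library left out). The same held at 84 h (931; 1617 with DESeq2, 209 without libraries high in skin genes, down to 443 with 1 library left out). It held too for CLA at 132 h minus estrogen at 84 h (7212; 4014 without libraries high in skin genes) and for controls over time (2385; 7 without them). Estrogen at 84 h minus 60 h gave 1 gene by edgeR, 1160 at an unadjusted p under 0.05 and 18 with DESeq2. With RPKM the median of all genes lay 0.14 log2 higher for CLA at 132 h than with counts. Depth leaves least room for genes with few counts in controls, such as C7 (from 0.529 CPM), Itgax (from 1.66), C8g (from 2.12) and Cfb (from 4.01).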

Other observations

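The genes of a hepatocyte list (Apoa1, Apoa2, Ttr, Fga, Serpina1c and Ahsg), chosen after seeing the data, had a summed level of 1420 CPM in control replicate 1 at 132 h. In estrogen replicate 5 at 60 h it was 162.5 CPM, against 0.22 to 3.17 CPM in the other 38 libraries. Complement genes that the liver makes in large amounts moved with these libraries. Without them the count of the 35 other complement genes called at 132 h with CLA was 15 higher and 8 lower, in place of 12 and 12. Hc, which encodes C5, was at -0.85 at 132 h and at 1.49 without them (edgeR, adjusted p = 0.00516). At 60 h with estrogen the count was 0 higher and 1 lower without them, in place of 2 and 4. At 84 h it was 1 higher and 2 lower, in place of 2 lower. The added call there was Hc (1.77 log2, edgeR, adjusted p = 0.0101).

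The early classical proteases C1ra, C1rb and C1s1 were called higher with CLA at 132 h, at 0.28, 0.52 and 0.38 log2. They were not called at 108 h (-0.06, -0.07 and -0.05), though the difference between the times was not resolved. Without the libraries high in skin genes the 132 h call of C1ra was lost (0.26, edgeR, adjusted p = 0.0537). Those of C1rb and C1s1 remained. Genes of the interferon response had medians of 1.62 log2 (9 of 11 higher) at 132 h and 0.23 (1 of 11 higher) at 108 h, where 27% and 24.9% of all genes were called higher. The contrast between the times called 0 of these 11 by edgeR, with 1 at an unadjusted p under 0.05. Genes of the acute phase response had medians of 0.51 (7 of 11 higher) at 132 h and 0.49 (3 of 11 higher) at 108 h. Serping1, the C1 inhibitor, fell with estrogen by 0.27 log2 at 60 h and by 0.61 at 84 h, and the 60 h call was lost without the libraries high in hepatocyte genes (-0.22; edgeR, adjusted p = 0.131). Both calls were lost without the libraries high in skin genes, at -0.22 (edgeR, adjusted p = 0.136) and -0.33 (edgeR, adjusted p = 0.518). That setting leaves 2 estrogen and 4 control mice at 84 h. C1ra was also called lower with estrogen, at -0.31 at 60 h and -0.44 at 84 h (edgeR, adjusted p = 0.0167 and 0.01605). Without the libraries high in skin genes C1ra was at -0.28 at 60 h (edgeR, adjusted p = 0.0439). There its 84 h call was lost, at -0.23 (edgeR, adjusted p = 0.4475).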
